A study of Danio rerio with 14 samples.

Results

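Zebrafish genes for plasma proteins and lipoproteins were followed in 14 RNA-seq libraries of whole embryos at 72 h post-fertilization (hpf). The genes were chosen by symbol and a minimum count: fibrinogen chains, plasminogen, transthyretin, hemopexin, ambp, ahsg, fetub, mttp, apob and the vitronectin, itih, apoa, apoc, apoe, apom, serpina, serpinc, serpind and serpinf genes. Of the 32105 genes listed, 45 matched, and 41 of these had 10 or more counts in 3 or more libraries and were kept. The 4 others were apoc4, serpina7, apoa4b.3 and itih3b.1, whose highest counts in any library were 3, 4, 6 and 9. The rule uses no difference between groups, though the members were chosen with earlier results of these data known. ahsg1 and ahsg2 carry a number and not a paralog letter and were left outside. ahsg1 had 10 or more counts in 3 libraries, with at most 11, and was not among the genes tested below. ahsg2 had at most 3 counts in a library.

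There were 4 groups: ahrra-null TCDD (4 libraries, replicates 13 to 16), ahrra-null DMSO (4, replicates 9 to 12), wild-type TCDD (3, replicates 6 to 8) and wild-type DMSO (3, replicates 2 to 4). The ahrra-null line was made with a zinc finger nuclease, lacks a working ahrra, whose protein represses signalling by the aryl hydrocarbon receptor (AHR), and carries the strain label Tupfel longfin, as the wild type does. AHR is a transcription factor that TCDD, a dioxin, binds and activates. Embryos were exposed from 6 hpf for 1 h to 2 nM TCDD or to the solvent, 0.01% DMSO. The labels give neither the parents or clutches nor the number of embryos behind a library, so genotype cannot be told apart from the line or clutch, and the p-values measure the spread between these samples, which may in part be technical. The question of the series is what loss of ahrra changes in expression, with TCDD and without it.

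Most of these proteins are made by hepatocytes and released into the blood. Fibrinogen is the precursor of the fibrin clot, plasmin dissolves it, and serpins hold clotting, fibrinolytic and other proteases in check. Lipoproteins carry lipid through plasma. In the particles that contain apolipoprotein B, a single molecule of it forms the backbone, and microsomal triglyceride transfer protein loads it with lipid. High-density lipoprotein is not built on apolipoprotein B. Smaller apolipoproteins move between particles and steer enzymes and receptors. In the zebrafish embryo the yolk syncytial layer, which surrounds the yolk, and later the intestine also make apolipoproteins, so these transcripts are not from liver alone. Since whole embryos were used, fewer cells of a type and less RNA per cell cannot be told apart.

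The libraries held 16852240 to 23081186 counts each. Levels are given as CPM, counts relative to the TMM-scaled library size, and are not comparable between genes, since they are not per length. ahrra, the targeted gene, was at 21.1 to 54.5 CPM in ahrra-null TCDD and 0.879 to 1.42 CPM in ahrra-null DMSO libraries, against 14.1 to 20.5 CPM in wild-type TCDD and 0.612 to 1.39 CPM in wild-type DMSO libraries, so its transcript level does not check the genotype labels. CYP1A1, the standard AHR target, was at 465 to 1103 CPM in ahrra-null TCDD against 3.35 to 4.78 CPM in ahrra-null DMSO libraries, and at 1011 to 1553 CPM in wild-type TCDD against 5.56 to 8.06 CPM in wild-type DMSO libraries. Differences were tested in 1 edgeR quasi-likelihood fit of 21606 genes over the 14 libraries, and a gene was called at a Benjamini-Hochberg adjusted p under 0.05 over all of them. Log2 fold changes are ahrra-null over wild type, or TCDD over DMSO, with a standard error derived from the F statistic.

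The wild-type DMSO libraries spread widely on these genes. Replicate 2 was the highest of its group in 35 of 41 members (85.4%, against 35.3% of all genes tested), and replicate 4 was the lowest in 33 (80.5%, against 37.1%). In the ahrra-null TCDD group replicate 13 was the highest in 30 members (73.2%, against 30.7% of all genes tested) and replicate 16 the lowest in 28 (68.3%, against 23.3%). The mean log2 CPM over the 41 members was 3.12, 2.79, 2.79 and 2.57 in ahrra-null TCDD and 3.09, 3.02, 3.13 and 2.90 in ahrra-null DMSO libraries, against 3.15, 3.10 and 3.05 in wild-type TCDD and 3.76, 3.49 and 3.13 in wild-type DMSO libraries. Each group is listed here and below in the order of its replicate numbers. The last library in this order had the lowest mean in every group (2.57, 2.90, 3.05 and 3.13). ahrra-null DMSO replicate 12 was the lowest in 23 members (56.1%, against 29.7% of all genes tested). Wild-type TCDD replicate 8 was the lowest in 16 (39%, against 34%), as was replicate 7. The labels used here name no batch, and a batch shared between groups was not tested. Markers of other gut organs are given beside the members. The summed level of 9 enterocyte marker genes was 56 to 90.2 CPM in ahrra-null TCDD and 57.3 to 72.8 CPM in ahrra-null DMSO libraries, against 113 to 122 CPM in wild-type TCDD and 95.7 to 197 CPM in wild-type DMSO libraries. The 8 exocrine pancreas marker genes summed to 8.14 to 9.77 CPM in ahrra-null TCDD and 10.5 to 13.5 CPM in ahrra-null DMSO libraries, against 9.47 to 9.95 CPM in wild-type TCDD and 12.6 to 36.1 CPM in wild-type DMSO libraries. Hepatocyte markers were present in every group: 9 genes summed to 63.8 to 97.6 CPM in ahrra-null TCDD and 99.7 to 127 CPM in ahrra-null DMSO libraries, against 93.5 to 105 CPM in wild-type TCDD and 109.7 to 220.0 CPM in wild-type DMSO libraries. The part of these organs in the results on the members was not tested.

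**Figure D1:**
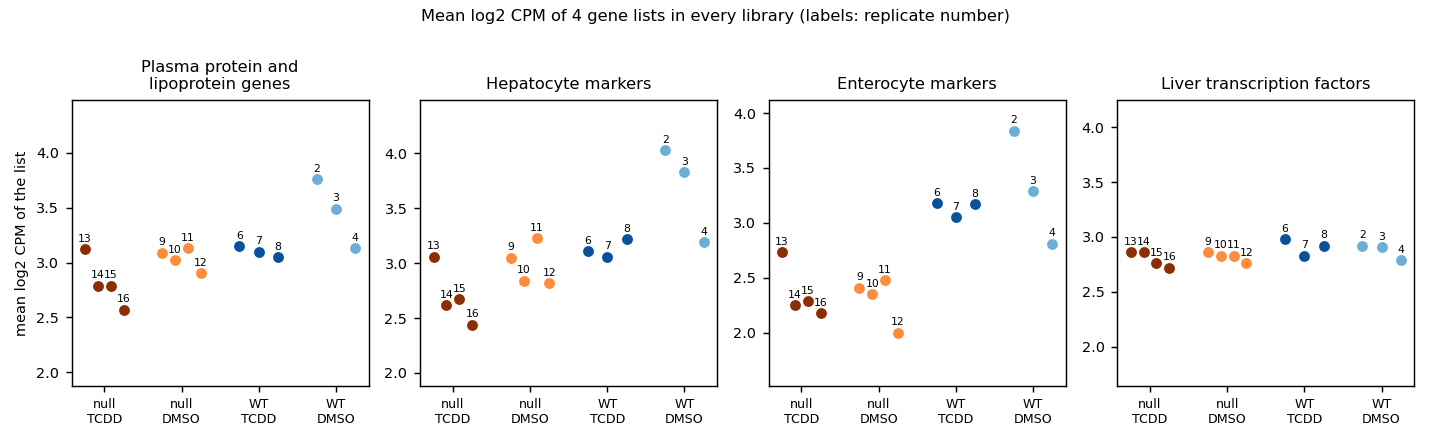
Mean log2 CPM (y axis) of the 41 plasma protein and lipoprotein genes and of 3 marker or regulator lists in each library, by group (x axis), with the replicate number above each point. Wild-type DMSO replicates 2, 3 and 4 stand at 3.76, 3.49 and 3.13 for the members, and the liver transcription factors stay between 2.72 and 2.98 over all 14 libraries.

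Members moved together from library to library. After the group means were subtracted, the mean correlation (Pearson) between pairs of members over the 14 libraries was 0.45, against 0.00 over pairs of all genes tested. Both are means of signed values, in which positive and negative correlations cancel. The member mean spread most in wild-type DMSO (3.13 to 3.76) and ahrra-null TCDD libraries (2.57 to 3.12). It spread less in ahrra-null DMSO (2.90 to 3.13) and wild-type TCDD libraries (3.05 to 3.15). This is a description of 14 shared libraries, with no test. It was 0.69 among the 10 exchangeable apolipoproteins, 0.48 among the 10 clotting genes, 0.40 among the 12 protease inhibitor and matrix genes, 0.35 among the 5 carriers and 0.21 among the 4 lipoprotein core genes. apoa2 followed the mean of the other members most closely (0.97), while serpina10b (-0.43), apobb.2 (-0.42) and hpxa (-0.15) had negative values.

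In ahrra-null embryos most of these genes had a lower fitted level than in wild type, 31 of the 41 with TCDD and 33 with DMSO (50.4% and 51.1% of all genes tested did). Among DMSO libraries 24 of the 41 members were called, 21 lower and 3 higher in ahrra-null, which is 58.5% beside 21.6% of all genes tested (11.7% lower, 9.91% higher). Among TCDD libraries 19 were called, 14 lower and 5 higher, which is 46.3% beside 25.8% of all genes (13.1% lower, 12.7% higher). The median log2 fold change of the members was -0.42 with TCDD and -0.47 with DMSO, beside 0.00 and -0.01 over all genes. With TCDD the groups did not overlap in 17 members that were lower in ahrra-null and 6 that were higher (18.4% and 17.7% of all genes), and with DMSO in 17 and 3 (13.2% and 12.9%).

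The TCDD and DMSO comparisons of genotype share no library. 13 members were called lower in both, which is 31.7% of the 41 beside 7.85% of all genes tested: all 3 fibrinogen chains, serpinf2a, apom, fetub, ITIH2, serpina1, MTTP, apoa1b, apoc1, apoea and apoeb. They made up 92.9% of the members lower with TCDD and 61.9% of those lower with DMSO, beside 60.1% and 67.1% for all genes lower in each comparison. The 3 called higher in both were apobb.2, itih3a.1 and serpinf1, which is 7.32% of the members, near the 7.22% of all genes. The 14 members called in neither were PLG, SERPIND1, serpinf2b, ambp, hpxa, itih3a.2, itih6, ITIH5, VTN (ENSDARG00000053831), APOB, apobb.1, apoa1a, apoa4b.1 and apoa4b.2. Without wild-type DMSO replicate 2 the count with DMSO was 16 of the 41, beside 13% of all genes in that fit. Without wild-type TCDD replicate 8 the count with TCDD was 12, of which 8 were lower and 4 higher, beside 19.2% of all genes in that fit. Without wild-type TCDD replicate 7 the median log2 fold change with TCDD was -0.24, beside 0.00 over all genes.

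**Figure D2:**
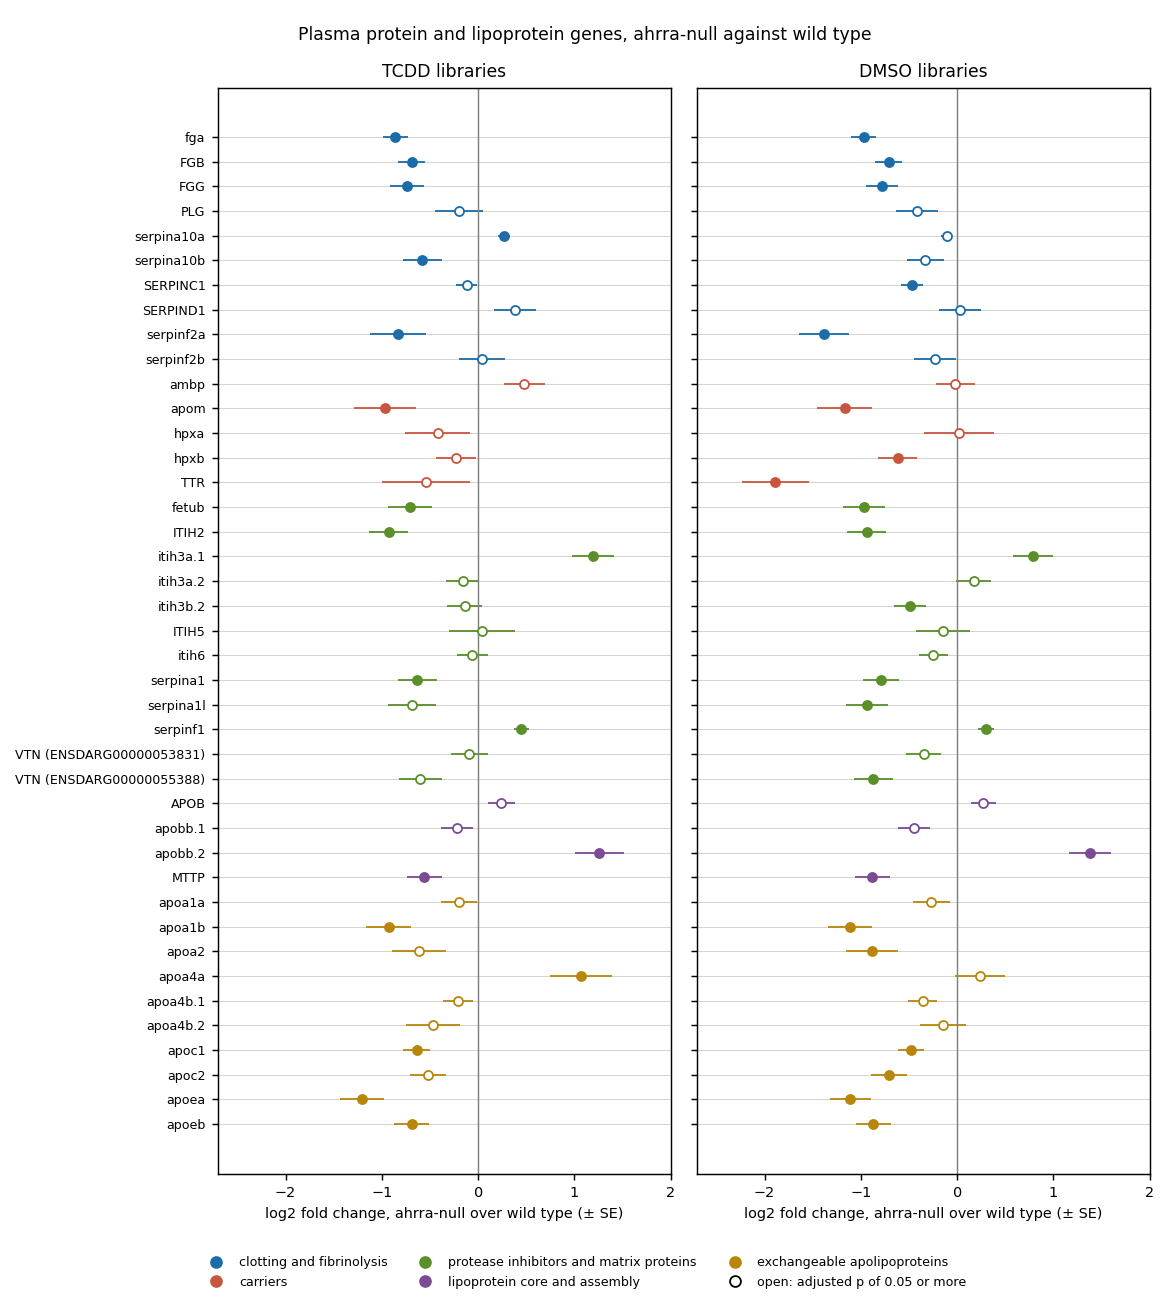
Log2 fold change of ahrra-null over wild type (x axis, bars ± SE) for the 41 members (y axis), in TCDD libraries (left) and DMSO libraries (right), with filled points where the adjusted p was under 0.05. Most points lie left of 0 in both panels (median -0.42 with TCDD and -0.47 with DMSO), and apobb.2, itih3a.1 and serpinf1 are filled on the right in both.

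The fibrinogen hexamer is built of paired alpha, beta and gamma chains, and the transcripts of all 3 were lower in ahrra-null embryos. fga, the alpha chain, had 18.3, 12.5, 14.6 and 13 CPM in ahrra-null against 26.4, 25.1 and 27.9 CPM in wild type with TCDD, and 15.1, 15.8, 19.1 and 15.7 CPM in ahrra-null against 37.7, 32.4 and 26.1 CPM in wild type with DMSO. Every ahrra-null library was below every wild-type library of the same exposure. fga had a log2 fold change of -0.86 ± 0.13 (adjusted p = 0.000154) with TCDD and -0.97 ± 0.13 (adjusted p = 5.55e-05) with DMSO. FGB, the beta chain, had 12.4, 9.22, 9.01 and 7.08 CPM in ahrra-null against 14.8, 15.1 and 15.7 CPM in wild type with TCDD, and 11.3, 10.5, 12.2 and 10.4 CPM in ahrra-null against 21.7, 18 and 14.8 CPM in wild type with DMSO. Its groups did not overlap in either comparison, and its log2 fold change was -0.69 ± 0.14 (adjusted p = 0.00147) with TCDD and -0.71 ± 0.14 (adjusted p = 0.0011) with DMSO. FGG, the gamma chain, had 3.76, 3.89, 2.85 and 3.21 CPM in ahrra-null against 6.11, 5.49 and 5.57 CPM in wild type with TCDD, and 3.88, 4.26, 5.49 and 3.66 CPM in ahrra-null against 8.9, 8.37 and 4.91 CPM in wild type with DMSO. With DMSO, ahrra-null replicate 11 stood above wild-type replicate 4, so those groups overlapped, and with TCDD they did not. FGG had a log2 fold change of -0.74 ± 0.18 (adjusted p = 0.00498) with TCDD and -0.78 ± 0.17 (adjusted p = 0.00237) with DMSO. The 3 chains kept both calls under every alternative that was run.

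Among the other clotting genes, the serpins differed in direction. serpinf2a encodes alpha2-antiplasmin, the main inhibitor of plasmin, and had 1.99, 0.889, 1.1 and 0.714 CPM in ahrra-null against 1.99, 2.28 and 2.03 CPM in wild type with TCDD, and 1.51, 1.21, 1.32 and 0.961 CPM in ahrra-null against 4.21, 3.47 and 2.05 CPM in wild type with DMSO. The ahrra-null libraries were below wild type in both comparisons, though ahrra-null TCDD replicate 13 was level with the lowest wild-type TCDD library to 3 digits. serpinf2a had a log2 fold change of -0.83 ± 0.29 (adjusted p = 0.0367) with TCDD and -1.38 ± 0.26 (adjusted p = 0.000668) with DMSO, and the call with TCDD was lost when any 1 of wild-type TCDD replicates 6, 7 and 8 and ahrra-null TCDD replicates 14, 15 and 16 was left out (adjusted p from 0.0729 to 0.116). SERPINC1, antithrombin, had 14.3, 11.8, 11.3 and 10.6 CPM in ahrra-null against 13.6, 12.8 and 12.8 CPM in wild type with TCDD, and 12.3, 12.4, 13 and 10.8 CPM in ahrra-null against 20.2, 15.9 and 14.2 CPM in wild type with DMSO. The groups were apart with DMSO and overlapped with TCDD, where ahrra-null replicate 13 was the highest of all 7 TCDD libraries. SERPINC1 had a log2 fold change of -0.47 ± 0.11 (adjusted p = 0.00354) with DMSO and -0.12 ± 0.11 (adjusted p = 0.453) with TCDD, and the DMSO call was lost when wild-type DMSO replicate 2 was left out (adjusted p = 0.0559). serpina10a and serpina10b correspond to the protein Z-dependent inhibitor of activated factor X. serpina10b had 1.59, 1.67, 1.69 and 1.9 CPM in ahrra-null against 2.63, 2.61 and 2.41 CPM in wild type with TCDD, and 1.32, 2, 2.47 and 2.2 CPM in ahrra-null against 2.35, 2.19 and 2.97 CPM in wild type with DMSO. Its ahrra-null libraries were lower than wild type with TCDD and overlapped it with DMSO. serpina10b had a log2 fold change of -0.58 ± 0.20 (adjusted p = 0.0322) with TCDD, a call lost when any 1 of wild-type TCDD replicates 6, 7 and 8 and ahrra-null TCDD replicates 13, 14 and 15 was left out (adjusted p from 0.0566 to 0.102) and also under DESeq2 (adjusted p = 0.0686), and -0.33 ± 0.19 (adjusted p = 0.23) with DMSO.

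serpina10a went the other way. It had 69.5, 66.3, 66.8 and 71 CPM in ahrra-null against 57.4, 56 and 56.9 CPM in wild type with TCDD, and 57.8, 59.8, 57.1 and 53.2 CPM in ahrra-null against 65, 59.4 and 59.4 CPM in wild type with DMSO. The 4 ahrra-null TCDD libraries were above the 10 others. With TCDD its log2 fold change was 0.27 ± 0.06 (adjusted p = 0.000952), and with DMSO it was -0.11 ± 0.06 (adjusted p = 0.18), not called. The remaining clotting genes were PLG, the precursor of plasmin, SERPIND1, heparin cofactor II, and serpinf2b, the paralog of serpinf2a. PLG averaged 4.88 CPM in ahrra-null TCDD and 5.65 CPM in wild-type TCDD libraries, and 6.84 CPM in ahrra-null DMSO and 9.1 CPM in wild-type DMSO libraries. Of the 10 clotting and fibrinolysis genes 5 were called lower and 1 higher with TCDD, and 5 lower and 0 higher with DMSO, that is 60.0% with TCDD and 50.0% with DMSO, beside 25.8% and 21.6% of all genes tested.

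Of the 5 carriers, transthyretin and apom were the furthest from wild type with DMSO. TTR carries thyroid hormone and retinol-binding protein, and had 0.911, 0.5, 0.291 and 0.417 CPM in ahrra-null against 0.636, 0.87 and 0.856 CPM in wild type with TCDD, and 1.04, 0.578, 0.549 and 0.503 CPM in ahrra-null against 3.41, 3.01 and 1.08 CPM in wild type with DMSO. Wild-type DMSO replicates 2 and 3 were far above the other 12 libraries, and replicate 4 was just above the highest ahrra-null DMSO library. TTR had a log2 fold change of -1.89 ± 0.35 (adjusted p = 0.000742) with DMSO and -0.54 ± 0.46 (adjusted p = 0.421) with TCDD, where the groups overlapped. TTR had only 5 to 64 counts in a library. apom, which carries sphingosine-1-phosphate on high-density lipoprotein, had 5.69, 2.44, 3.02 and 2.38 CPM in ahrra-null against 8.31, 6.09 and 5.41 CPM in wild type with TCDD, and 4.45, 3.1, 3.79 and 4.53 CPM in ahrra-null against 11.8, 9.33 and 5.89 CPM in wild type with DMSO. With TCDD, ahrra-null replicate 13 was above wild-type replicate 8, and with DMSO the groups were apart. apom had a log2 fold change of -0.97 ± 0.32 (adjusted p = 0.04) with TCDD and -1.17 ± 0.29 (adjusted p = 0.0142) with DMSO. The TCDD call of apom was lost when any 1 of wild-type TCDD replicates 6 and 7 and ahrra-null TCDD replicates 14, 15 and 16 was left out (adjusted p from 0.0716 to 0.155), with no filter on low counts (adjusted p = 0.0663) and in a fit of these groups alone (adjusted p = 0.0532), and the DMSO call when wild-type DMSO replicate 2 was left out (adjusted p = 0.0682).

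The paralogs hpxa and hpxb encode hemopexin, which binds free heme. hpxb had 2.33, 1.78, 2.38 and 2.02 CPM in ahrra-null against 2.63, 2.45 and 2.41 CPM in wild type with TCDD, and 2.27, 2.05, 2.09 and 1.46 CPM in ahrra-null against 3.73, 3.37 and 1.94 CPM in wild type with DMSO. Wild-type DMSO replicate 4 lay below all but 1 of the ahrra-null DMSO libraries, while with TCDD every ahrra-null library was below wild type. hpxb had a log2 fold change of -0.62 ± 0.20 (adjusted p = 0.0292) with DMSO, a call lost when any 1 of wild-type DMSO replicates 2 and 3 and ahrra-null DMSO replicates 10 and 12 was left out (adjusted p from 0.0506 to 0.205) and in a fit of these groups alone (adjusted p = 0.0733), and -0.23 ± 0.21 (adjusted p = 0.438) with TCDD. hpxa had no more than 16 counts in any library. It averaged 0.503 CPM in ahrra-null TCDD and 0.68 CPM in wild-type TCDD libraries (adjusted p = 0.389). With DMSO it averaged 0.506 CPM in ahrra-null and 0.492 CPM in wild-type libraries (adjusted p = 0.975). ambp, the precursor of alpha1-microglobulin and of bikunin, had 9.62, 8.28, 7.62 and 6.61 CPM in ahrra-null against 5.9, 5.93 and 5.41 CPM in wild type with TCDD, and 8.56, 8.04, 10.7 and 8.15 CPM in ahrra-null against 12.7, 8.42 and 5.72 CPM in wild type with DMSO. Each ahrra-null TCDD library was above each wild-type TCDD library, while the wild-type DMSO libraries reached both above and below all the ahrra-null DMSO libraries. ambp had a log2 fold change of 0.48 ± 0.21 (adjusted p = 0.114) with TCDD and -0.02 ± 0.20 (adjusted p = 0.956) with DMSO. The carriers called were 1 of 5 with TCDD (20%, under the 25.8% of all genes) and 3 of 5 with DMSO (60.0%, beside 21.6%), all lower.

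Protease inhibitors and matrix proteins included genes on both sides. fetub, a fetuin that in mouse inhibits the protease that hardens the egg coat, had 10.1, 7.78, 6.34 and 4.7 CPM in ahrra-null against 11.5, 11.4 and 12.8 CPM in wild type with TCDD, and 10.3, 8.25, 8.13 and 8.33 CPM in ahrra-null against 22.8, 16.3 and 12.5 CPM in wild type with DMSO. All ahrra-null libraries were below wild type in both comparisons. Its log2 fold change was -0.71 ± 0.23 (adjusted p = 0.0416) with TCDD and -0.97 ± 0.22 (adjusted p = 0.00773) with DMSO, and the TCDD call was lost when any 1 of wild-type TCDD replicates 6, 7 and 8 and ahrra-null TCDD replicates 14, 15 and 16 was left out (adjusted p from 0.0646 to 0.114) and with no filter on low counts (adjusted p = 0.069). serpina1, alpha1-antitrypsin, which protects tissue from neutrophil elastase, had 5.24, 4.94, 4.19 and 3.1 CPM in ahrra-null against 7.38, 6.04 and 6.85 CPM in wild type with TCDD, and 5.72, 6.25, 5.88 and 4.85 CPM in ahrra-null against 12.5, 10.4 and 6.37 CPM in wild type with DMSO. Here too the groups were apart in both comparisons. serpina1 had a log2 fold change of -0.63 ± 0.20 (adjusted p = 0.029) with TCDD and -0.79 ± 0.19 (adjusted p = 0.00607) with DMSO, and the TCDD call was lost when any 1 of wild-type TCDD replicates 6 and 8 and ahrra-null TCDD replicates 15 and 16 was left out (adjusted p from 0.0648 to 0.111). Its neighbour serpina1l had 5.41, 5.28, 5.06 and 4.4 CPM in ahrra-null against 7.42, 8.37 and 8.62 CPM in wild type with TCDD, and 5.53, 8.88, 9.23 and 6.45 CPM in ahrra-null against 18.7, 15.5 and 8.8 CPM in wild type with DMSO. Wild-type DMSO replicate 4 fell within the ahrra-null DMSO range, and with TCDD the groups were apart. serpina1l had a log2 fold change of -0.94 ± 0.22 (adjusted p = 0.00893) with DMSO, lost in a fit of these groups alone (adjusted p = 0.0751), and -0.69 ± 0.25 (adjusted p = 0.0599) with TCDD. Leaving out any single library kept its DMSO call.

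The itih genes encode heavy chains of inter-alpha-trypsin inhibitors, which bind hyaluronan. ITIH2 had 1.99, 1.56, 1.05 and 1.61 CPM in ahrra-null against 2.88, 2.99 and 3.05 CPM in wild type with TCDD, and 1.51, 1.52, 1.7 and 1.46 CPM in ahrra-null against 3.63, 3.11 and 2.16 CPM in wild type with DMSO. The ahrra-null libraries were lower throughout. ITIH2 had a log2 fold change of -0.93 ± 0.20 (adjusted p = 0.0013) with TCDD and -0.94 ± 0.20 (adjusted p = 0.00153) with DMSO and kept both calls under every alternative run. itih3a.1 had 2.73, 2.39, 2.96 and 2.14 CPM in ahrra-null against 1.23, 1.14 and 0.963 CPM in wild type with TCDD, and 2.74, 2.68, 2.8 and 1.83 CPM in ahrra-null against 1.81, 1.48 and 1.03 CPM in wild type with DMSO. It was above wild type in every ahrra-null library of both exposures. itih3a.1 had a log2 fold change of 1.19 ± 0.22 (adjusted p = 0.00037) with TCDD and 0.79 ± 0.21 (adjusted p = 0.00939) with DMSO, the second lost when wild-type DMSO replicate 4 was left out (adjusted p = 0.0516). itih3a.2 lies next to itih3a.1 in the RefSeq gene order and averaged 4.19 CPM in ahrra-null TCDD and 4.67 CPM in wild-type TCDD libraries, and 3.78 CPM in ahrra-null DMSO and 3.37 CPM in wild-type DMSO libraries. The adjusted p of itih3a.2 was 0.514 with TCDD and 0.537 with DMSO, and reads of such close copies may have been split or lost. itih3b.2 had 8.94, 5.78, 5.75 and 5.18 CPM in ahrra-null against 7.17, 6.25 and 7.76 CPM in wild type with TCDD, and 7.76, 7.62, 6.43 and 6.13 CPM in ahrra-null against 11.4, 10.6 and 7.4 CPM in wild type with DMSO. Only wild-type DMSO replicates 2 and 3 stood clear of the ahrra-null libraries. itih3b.2 had a log2 fold change of -0.49 ± 0.17 (adjusted p = 0.0416) with DMSO, a call lost when any 1 of wild-type DMSO replicates 2 and 3 and ahrra-null DMSO replicates 10, 11 and 12 was left out (adjusted p from 0.0563 to 0.193) and with no filter on low counts (adjusted p = 0.0503), and -0.14 ± 0.18 (adjusted p = 0.605) with TCDD. ITIH5 and itih6 were called in neither comparison.

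Of the 2 genes with the vitronectin symbol, the one with the ID ENSDARG00000055388 was called and the other was not. Vitronectin binds integrins and stabilises plasminogen activator inhibitor. VTN (ENSDARG00000055388) had 2.9, 2.39, 2.15 and 1.61 CPM in ahrra-null against 3.31, 3.37 and 3.64 CPM in wild type with TCDD, and 2.74, 2.05, 3.35 and 2.61 CPM in ahrra-null against 6.93, 4.23 and 3.62 CPM in wild type with DMSO. Its groups did not overlap, although ahrra-null DMSO replicate 11 came close to wild-type DMSO replicate 4. The log2 fold change was -0.87 ± 0.20 (adjusted p = 0.00389) with DMSO, lost when wild-type DMSO replicate 2 was left out (adjusted p = 0.0651), and -0.60 ± 0.22 (adjusted p = 0.0527) with TCDD. VTN (ENSDARG00000053831) had an adjusted p of 0.763 with TCDD and 0.167 with DMSO. serpinf1, pigment epithelium-derived factor, an inhibitor of blood vessel growth that many tissues make, had 48.3, 42.1, 39.9 and 38.6 CPM in ahrra-null against 28, 33.6 and 31.5 CPM in wild type with TCDD, and 42.6, 42.9, 39.9 and 43.8 CPM in ahrra-null against 37.8, 35.1 and 30.2 CPM in wild type with DMSO. The ahrra-null libraries were above all wild-type libraries of the same exposure. serpinf1 had a log2 fold change of 0.45 ± 0.08 (adjusted p = 0.000369) with TCDD and 0.30 ± 0.08 (adjusted p = 0.0112) with DMSO, the second lost when wild-type DMSO replicate 4 was left out (adjusted p = 0.056). Of these 12 genes 3 were called lower and 2 higher with TCDD (41.7%, beside 25.8% of all genes), and 6 lower and 2 higher with DMSO (66.7%, beside 21.6%).

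Of the 4 lipoprotein core genes 1 was called lower, MTTP, and 1 higher, apobb.2, in both comparisons (50.0%, beside 25.8% of all genes with TCDD and 21.6% with DMSO). MTTP, which loads lipid onto apolipoprotein B, had 9.85, 6.78, 7.44 and 5.71 CPM in ahrra-null against 11.1, 10.9 and 11 CPM in wild type with TCDD, and 6.43, 7.31, 6.92 and 5.86 CPM in ahrra-null against 15.7, 12.3 and 8.58 CPM in wild type with DMSO. Its groups were apart in both comparisons, with all ahrra-null libraries lower. MTTP had a log2 fold change of -0.56 ± 0.18 (adjusted p = 0.0274) with TCDD and -0.88 ± 0.18 (adjusted p = 0.00207) with DMSO, and the TCDD call was lost when any 1 of wild-type TCDD replicates 6, 7 and 8 and ahrra-null TCDD replicates 14, 15 and 16 was left out (adjusted p from 0.0548 to 0.0754). apobb.2, an apolipoprotein B gene, had 2.45, 2.17, 3.55 and 2.32 CPM in ahrra-null against 1.1, 1.25 and 0.91 CPM in wild type with TCDD, and 4.07, 4.15, 3.84 and 3.71 CPM in ahrra-null against 1.28, 0.969 and 2.32 CPM in wild type with DMSO. All 8 ahrra-null libraries but ahrra-null TCDD replicates 14 and 16 were above every wild-type library, and these were below wild-type DMSO replicate 4 or level with it. apobb.2 had a log2 fold change of 1.26 ± 0.25 (adjusted p = 0.000603) with TCDD and 1.38 ± 0.22 (adjusted p = 0.000106) with DMSO, kept under every alternative run. Its paralog apobb.1 had 73, 58.4, 52.1 and 44.8 CPM in ahrra-null against 71.1, 65.1 and 63.6 CPM in wild type with TCDD, and 70.2, 64.2, 69.1 and 63.2 CPM in ahrra-null against 116, 84.4 and 72.9 CPM in wild type with DMSO. With DMSO its ahrra-null libraries were below wild type, and with TCDD they overlapped it. apobb.1 had a log2 fold change of -0.22 ± 0.17 (adjusted p = 0.38) with TCDD and -0.45 ± 0.17 (adjusted p = 0.0824) with DMSO. APOB averaged 14.5 CPM in ahrra-null TCDD and 12.3 CPM in wild-type TCDD libraries, and 20.2 CPM in ahrra-null DMSO and 16.7 CPM in wild-type DMSO libraries, with an adjusted p of 0.244 with TCDD and 0.165 with DMSO. Of the 3 apolipoprotein B genes, apobb.2 alone was called in these comparisons.

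The exchangeable apolipoproteins were mostly lower in ahrra-null embryos. apoa1b, an apolipoprotein A-I, the main protein of high-density lipoprotein, had 189, 152, 118 and 119 CPM in ahrra-null against 289, 249.9 and 284 CPM in wild type with TCDD, and 179, 143, 178 and 162 CPM in ahrra-null against 477, 361 and 233 CPM in wild type with DMSO. Every ahrra-null library was below every wild-type library. apoa1b had a log2 fold change of -0.93 ± 0.23 (adjusted p = 0.0141) with TCDD and -1.11 ± 0.23 (adjusted p = 0.00674) with DMSO. The paralog apoa1a averaged 157 CPM in ahrra-null TCDD and 181 CPM in wild-type TCDD libraries, and 203 CPM in ahrra-null DMSO and 245 CPM in wild-type DMSO libraries, with an adjusted p of 0.496 with TCDD and 0.356 with DMSO. apoea, an apolipoprotein E, the ligand by which receptors of the LDL receptor family take up lipoproteins, had 13, 9.22, 9.71 and 7.68 CPM in ahrra-null against 26.1, 23.7 and 19.2 CPM in wild type with TCDD, and 18.6, 11.5, 15.5 and 14.4 CPM in ahrra-null against 41.9, 30.8 and 24.6 CPM in wild type with DMSO. Here also no ahrra-null library reached a wild-type one. apoea had a log2 fold change of -1.21 ± 0.23 (adjusted p = 0.00283) with TCDD and -1.11 ± 0.21 (adjusted p = 0.00394) with DMSO. apoeb, its paralog and in zebrafish also a marker of microglia, had 126, 119, 86 and 110.3 CPM in ahrra-null against 176, 167 and 192 CPM in wild type with TCDD, and 99.5, 72.5, 87.5 and 93.2 CPM in ahrra-null against 204, 161 and 118 CPM in wild type with DMSO. The groups were apart with either exposure. apoeb had a log2 fold change of -0.69 ± 0.18 (adjusted p = 0.0175) with TCDD and -0.87 ± 0.18 (adjusted p = 0.00707) with DMSO, the first lost when wild-type TCDD replicate 8 was left out (adjusted p = 0.0608). The 14 macrophage and microglia marker genes summed to 22 to 24.5 CPM in ahrra-null TCDD and 21.8 to 24 CPM in ahrra-null DMSO libraries, against 21.9 to 24.2 CPM in wild-type TCDD and 21.9 to 28.4 CPM in wild-type DMSO libraries.

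The smaller apolipoproteins lie beside apoeb. In RefSeq's gene order apoa4b.1, apoa4b.3, apoa4b.2, apoeb, apoc1, apoc4, apoa2 and apoc2 follow one another with 2 other genes among them. apoc1, whose mammalian protein slows lipoprotein uptake and lipid transfer, had 54.1, 51, 51.8 and 37.8 CPM in ahrra-null against 80.7, 73.8 and 72.6 CPM in wild type with TCDD, and 68, 56.6, 78.4 and 72.1 CPM in ahrra-null against 113, 85.4 and 89.1 CPM in wild type with DMSO. All ahrra-null libraries were lower in both comparisons. apoc1 had a log2 fold change of -0.64 ± 0.14 (adjusted p = 0.00516) with TCDD and -0.48 ± 0.13 (adjusted p = 0.0255) with DMSO, the second lost when any 1 of wild-type DMSO replicate 2 and ahrra-null DMSO replicate 9 was left out (adjusted p from 0.0557 to 0.12) and under limma voom (adjusted p = 0.0562). apoc2, the activator of lipoprotein lipase, had 23.6, 15.7, 16 and 13.5 CPM in ahrra-null against 26.4, 22.7 and 24.9 CPM in wild type with TCDD, and 20.8, 19.4, 22.7 and 20.7 CPM in ahrra-null against 44.6, 30.4 and 27.3 CPM in wild type with DMSO. With DMSO the groups were apart, and with TCDD ahrra-null replicate 13 stood above wild-type replicate 7. Its log2 fold change was -0.71 ± 0.19 (adjusted p = 0.0192) with DMSO, lost when any 1 of wild-type DMSO replicate 2 and ahrra-null DMSO replicate 10 was left out (adjusted p from 0.0502 to 0.0527), and -0.52 ± 0.19 (adjusted p = 0.0706) with TCDD. apoa2, another protein of high-density lipoprotein, had 89.8, 65.5, 60.1 and 43 CPM in ahrra-null against 103, 93.1 and 98.9 CPM in wild type with TCDD, and 84.7, 80.5, 102 and 78.5 CPM in ahrra-null against 227, 153 and 98.6 CPM in wild type with DMSO. Wild-type DMSO replicate 4 lay within the ahrra-null range, while with TCDD every ahrra-null library was lower. apoa2 had a log2 fold change of -0.88 ± 0.27 (adjusted p = 0.0431) with DMSO and -0.61 ± 0.28 (adjusted p = 0.144) with TCDD. The DMSO call of apoa2 was lost when any 1 of wild-type DMSO replicates 2 and 3 and ahrra-null DMSO replicates 9, 10, 11 and 12 was left out (adjusted p from 0.0574 to 0.208), with no filter on low counts (adjusted p = 0.056) and in a fit of these groups alone (adjusted p = 0.112). apoa4b.1 and apoa4b.2, apolipoprotein A-IV genes at the other end of the run, were called in neither comparison.

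apoa4a, an apolipoprotein A-IV gene beside apoea in the gene order, had 1.25, 1.22, 1.69 and 1.13 CPM in ahrra-null against 0.679, 0.816 and 0.375 CPM in wild type with TCDD, and 1.75, 1.47, 1.15 and 1.88 CPM in ahrra-null against 1.76, 1.48 and 0.756 CPM in wild type with DMSO. The ahrra-null TCDD libraries were all above wild-type TCDD, and with DMSO the groups overlapped. apoa4a had a log2 fold change of 1.07 ± 0.32 (adjusted p = 0.0149) with TCDD, lost when wild-type TCDD replicate 8 was left out (adjusted p = 0.0843), and 0.24 ± 0.26 (adjusted p = 0.566) with DMSO. apoa4a had 7 to 41 counts in a library. The neighbours apoea and apoa4a were thus called in opposite directions with TCDD. Of the 10 exchangeable apolipoproteins 4 were called lower and 1 higher with TCDD (50.0%, beside 25.8% of all genes), and 6 lower and 0 higher with DMSO (60.0%, beside 21.6%).

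**Figure D3:**
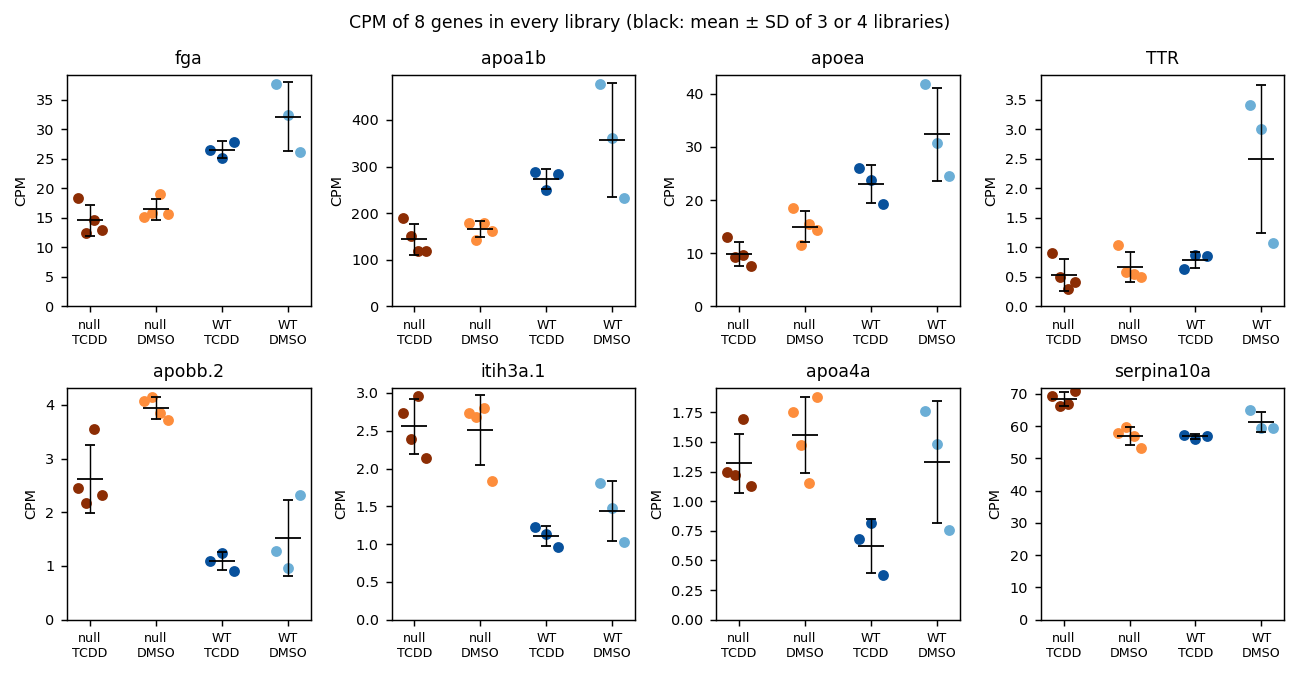
CPM (y axis, from 0) of 8 members in every library, by group (x axis), with the mean ± SD in black. fga, apoa1b and apoea are lower in both ahrra-null groups, apobb.2 and itih3a.1 are higher, TTR is high in wild-type DMSO replicates 2 and 3 (3.41 and 3.01 CPM), and serpina10a is highest in ahrra-null TCDD libraries (66.3 to 71 CPM).

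TCDD took few of these genes past the test in either genotype. In ahrra-null embryos 1 member was called, serpina10a, higher with TCDD, which is 2.44% beside 1.18% of all genes tested (0.815% higher). serpina10a had a log2 fold change of 0.26 ± 0.05 (adjusted p = 0.0064), and the call held under every alternative run. The TCDD libraries (66.3 to 71 CPM) were all above the DMSO libraries (53.2 to 59.8 CPM). Of the 41 members 32 had a negative log2 fold change, beside 48.7% of all genes, and the median was -0.22, beside 0.00 over all genes. 8 members had an unadjusted p under 0.05 (10.9% of all genes did). In 5 members every TCDD library was below every DMSO library (2.75% of all genes), among them APOB (-0.47 ± 0.13, adjusted p = 0.0903), apoc1 (-0.50 ± 0.13, adjusted p = 0.116) and apoa4b.2 (-0.90 ± 0.25, adjusted p = 0.113), which were not called. These 3 and apobb.2 were each called lower in some alternatives: DESeq2 and limma voom each called 4 members, 3 of them lower, beside 1.53% and 1.7% of all genes. Without ahrra-null TCDD replicate 15 there were 3 calls (1.73% of all genes) and without ahrra-null DMSO replicate 10 there were 2 (0.849% of all genes).

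In wild-type embryos 1 member was called, TTR, lower with TCDD, which is 2.44% beside 0.856% of all genes tested (0.375% lower). TTR stood at 0.636, 0.87 and 0.856 CPM in TCDD libraries, against 3.41, 3.01 and 1.08 CPM in DMSO libraries. Its log2 fold change was -1.68 ± 0.37 (adjusted p = 0.0321). The call was lost when any 1 of wild-type DMSO replicates 2 and 3 and wild-type TCDD replicates 6, 7 and 8 was left out (adjusted p from 0.0935 to 0.222) and in a fit of these groups alone (adjusted p = 0.132). A negative log2 fold change was found in 36 of 41 members, beside 50.4% of all genes, with a median of -0.44 beside 0.00, and 22 members had an unadjusted p under 0.05, beside 8.35% of all genes. In 10 members all TCDD libraries were below all DMSO libraries (6.84% of all genes). The count of calls depended on wild-type DMSO replicate 4, the DMSO library whose TTR was nearest to the TCDD libraries: without it 10 members were called, all lower, namely TTR, ambp, PLG, FGG, SERPINC1, serpina1, serpina1l, itih3b.2, apoa4b.1 and apoa4a. In that fit 1.78% of all genes were called, 270 lower and 118 higher. The count of members was 0 without wild-type DMSO replicate 2 or 3 or without any 1 of the 3 wild-type TCDD libraries. In those fits 0.376% to 0.642% of all genes were called. The median of the members was -0.22 without wild-type DMSO replicate 2. Of the 9 hepatocyte markers 1, hpda, was called lower (log2 fold change -0.64 ± 0.12, adjusted p = 0.00771), all 9 were negative, and their median was -0.51. The call of hpda was lost without any 1 of wild-type DMSO replicate 3 and wild-type TCDD replicates 7 and 8 (adjusted p from 0.0502 to 0.0782), and without wild-type DMSO replicate 4 there were 6 calls among the 9. Markers of other gut organs did not all go the same way. The 5 exocrine pancreas markers tested were all negative, with a median of -1.11. Of them 1, CPB1, was called lower (-1.10 ± 0.17, adjusted p = 0.000852), and leaving out any 1 library kept the call. Of 8 enterocyte markers 6 were negative, with a median of -0.35, and 0 were called by edgeR. Their summed level with TCDD (113 to 122 CPM) lay within the DMSO range (95.7 to 197 CPM). Of 4 endocrine pancreas markers 3 were positive, with a median of 0.36, and 0 were called by edgeR. The part of these markers in the result was not tested.

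**Figure D4:**
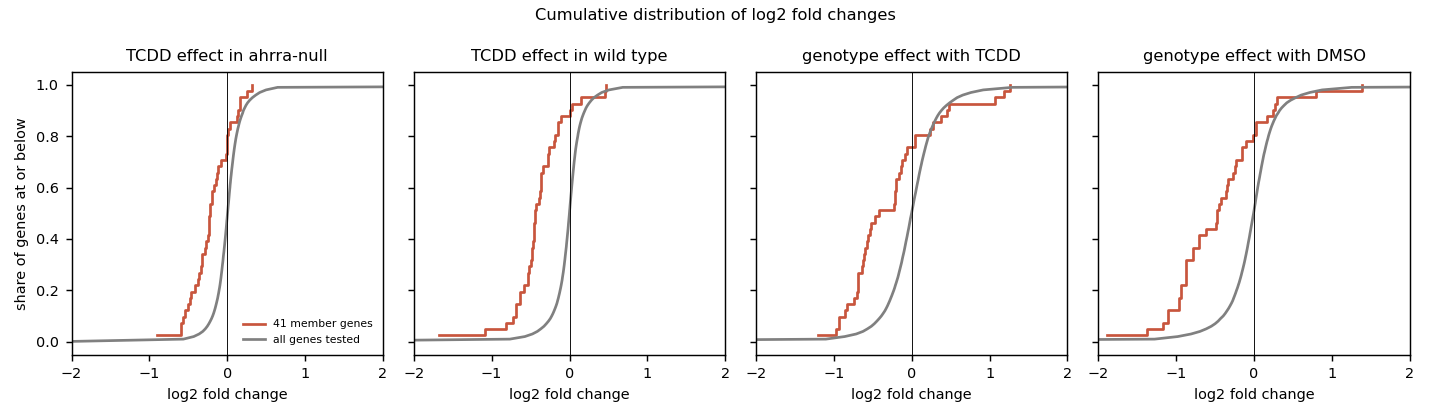
Cumulative share of genes (y axis) at or below a log2 fold change (x axis, drawn from -2 to 2) for the 41 members (red) and all 21606 genes tested (grey), for TCDD against DMSO in ahrra-null and in wild type and for ahrra-null against wild type with TCDD and with DMSO. The red curve lies left of the grey one over most of each panel, with medians of -0.22, -0.44, -0.42 and -0.47 against medians of all genes between -0.01 and 0.00.

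Whether the response to TCDD differed by genotype was tested as an interaction, the TCDD effect in ahrra-null minus that in wild type. With edgeR's quasi-likelihood test 0 of the 41 members and 0 of the 21606 genes were called (0%). At an unadjusted p under 0.05 there were 3 members, serpina10a, SERPINC1 and TTR, and 1117 genes (5.17%). DESeq2 called 1 member, serpina10a (difference 0.38 on the log2 scale, adjusted p = 0.0326), among 8 genes, and limma voom called 0 members and 2 genes. In edgeR the interaction of serpina10a was 0.38 ± 0.08 (adjusted p = 0.312) and that of TTR was 1.35 ± 0.60 (adjusted p = 0.948). The median over the members was 0.20, beside 0.01 over all genes, and -0.03 without wild-type DMSO replicate 2.

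Other liver genes were read from lists outside the symbol rule. Of 41 tested genes for other proteins that the liver secretes, 7 were lower and 3 higher in ahrra-null embryos with TCDD, and 8 lower and 1 higher with DMSO. These shares, 24.4% with TCDD and 22% with DMSO, were near the 25.8% and 21.6% of all genes, and the medians were -0.05 and -0.32 (0.00 and -0.01 over all genes). Those called lower alone were 17.1% with TCDD and 19.5% with DMSO, beside 13.1% and 11.7% of all genes. A negative log2 fold change was found in 22 of the 41 with TCDD and 31 with DMSO (50.4% and 51.1% of all genes). GC, the vitamin D-binding protein, had log2 fold changes of -1.23 ± 0.28 with TCDD (adjusted p = 0.00225) and -1.65 ± 0.22 with DMSO (adjusted p = 1.45e-05). F10, clotting factor X, had -0.74 ± 0.17 with TCDD (adjusted p = 0.00739) and -1.29 ± 0.18 with DMSO (adjusted p = 0.000248). Of 22 tested hepatocyte enzymes and transporters 5 were lower and 3 higher with TCDD (36.4%, beside 25.8% of all genes), and 15 lower and 2 higher with DMSO (77.3%, beside 21.6%). Among them FAH, the last enzyme of tyrosine breakdown, had -0.64 ± 0.09 with TCDD (adjusted p = 1.91e-05) and -0.70 ± 0.09 with DMSO (adjusted p = 8.98e-06). CYP8B1 (ENSDARG00000053068), a bile acid enzyme, had -1.02 ± 0.29 with TCDD (adjusted p = 0.0138) and -1.71 ± 0.26 with DMSO (adjusted p = 9.95e-05). Its TCDD call was lost without wild-type TCDD replicate 8 (adjusted p = 0.052). These counts changed without some libraries: the secreted proteins called with TCDD numbered 5 without wild-type TCDD replicate 8 and 6 without any 1 of wild-type TCDD replicates 6 and 7 and ahrra-null TCDD replicates 14 and 16, against 10 with all libraries, and with DMSO they numbered 14 without wild-type DMSO replicate 4, against 9 with all. The hepatocyte enzymes and transporters called with TCDD numbered 3 to 5 without any 1 of wild-type TCDD replicates 6, 7 and 8 and ahrra-null TCDD replicates 14 and 16, and with DMSO 9 without wild-type DMSO replicate 2 and 11 without replicate 3. Fewer of all genes were called in these TCDD fits too, 18% to 21.9%. With DMSO, 13%, 16.4% and 23% of all genes were called without wild-type DMSO replicates 2, 3 and 4.

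Of 24 liver transcription factors tested, 3 were lower and 2 higher with TCDD, and 2 lower and 1 higher with DMSO, with medians of 0.03 and -0.07. The shares called, 20.8% with TCDD and 12.5% with DMSO, were below the 25.8% and 21.6% of all genes, so no change of the list is read from them. NR1H4, the bile acid receptor, was lower in both comparisons, at -0.80 ± 0.17 with TCDD (adjusted p = 0.00158) and -0.74 ± 0.16 with DMSO (adjusted p = 0.00222). NR1I2, the pregnane X receptor, was lower too, at -0.67 ± 0.13 with TCDD (adjusted p = 0.000362) and -0.40 ± 0.13 with DMSO (adjusted p = 0.0264), a call lost without any 1 of wild-type DMSO replicates 2 and 3 and ahrra-null DMSO replicate 11 (adjusted p from 0.0576 to 0.0827). creb3l3l was higher with TCDD (0.21 ± 0.05, adjusted p = 0.00398). NR2F2 was higher in both comparisons, at 0.21 ± 0.07 with TCDD (adjusted p = 0.023) and 0.21 ± 0.07 with DMSO (adjusted p = 0.0272). Its TCDD call was lost without any 1 of 5 libraries (adjusted p from 0.0642 to 0.0753), and its DMSO call without any 1 of 4 (adjusted p from 0.0513 to 0.171). Of 34 lipoprotein receptor and lipid handling genes 8 were lower and 4 higher with TCDD (35.3%, beside 25.8% of all genes), and 8 lower and 2 higher with DMSO (29.4%, beside 21.6%). ABCA1 (ENSDARG00000074635), which loads lipid onto apolipoprotein A-I, was higher in both, at 0.32 ± 0.06 with TCDD (adjusted p = 0.000168) and 0.25 ± 0.06 with DMSO (adjusted p = 0.0023). LPL (ENSDARG00000087697), the lipase that apoc2 activates, was higher with TCDD, at 0.44 ± 0.06 (adjusted p = 8.33e-06). FABP2 and FABP1 (ENSDARG00000059227) were lower in both comparisons. FABP2 had -1.07 ± 0.33 with TCDD (adjusted p = 0.0343) and -1.44 ± 0.32 with DMSO (adjusted p = 0.0097). FABP1 had -1.38 ± 0.34 with TCDD (adjusted p = 0.0137) and -1.31 ± 0.32 with DMSO (adjusted p = 0.0138). The TCDD call of FABP2 was lost without any 1 of 6 libraries (adjusted p from 0.0633 to 0.0946). That of FABP1 was lost without wild-type TCDD replicate 6 (adjusted p = 0.0538). LCAT was lower with DMSO (-1.04 ± 0.30, adjusted p = 0.0153), a call lost without wild-type DMSO replicate 2 or 3 (adjusted p from 0.0883 to 0.112). With TCDD, P4HB was lower (-0.31 ± 0.06, adjusted p = 0.000226) and ANGPTL4 higher (0.45 ± 0.08, adjusted p = 0.000453). Without wild-type DMSO replicate 2 or 3 there were 1 transcription factor and 5 or 4 lipid genes called with DMSO, and without wild-type DMSO replicate 4 there were 5 transcription factors. Of all genes, 13%, 16.4% and 23% were called without replicates 2, 3 and 4. With TCDD, 3 transcription factors were called without wild-type TCDD replicate 6 or 8 or ahrra-null TCDD replicate 16, and 7 lipid genes without wild-type TCDD replicate 6. In these fits 18.3% to 20.9% of all genes were called. The marker lists share genes with the lists above. All 9 hepatocyte markers are also in the list of secreted proteins or that of hepatocyte enzymes and transporters. The enterocyte markers FABP1 and FABP2 are also in the lipid handling list. Among markers with TCDD, 1 of 9 hepatocyte markers (11.1%, under the 13.1% of all genes called lower) and 5 of 8 enterocyte markers (62.5%) were called lower in ahrra-null embryos. Though few were called, 8 of the 9 hepatocyte markers had a negative log2 fold change with TCDD (50.4% of all genes did). Their median was -0.45, and that of the enterocyte markers was -0.70. With DMSO 6 of 9 hepatocyte (66.7%) and 6 of 8 enterocyte markers (75%) were lower, beside 11.7% of all genes, while of 5 exocrine pancreas markers 0 were called by edgeR with TCDD (at an unadjusted p under 0.05, also 0) and 4 were lower with DMSO. Without wild-type DMSO replicate 2 the exocrine pancreas count with DMSO was 1, without any 1 of the wild-type TCDD libraries or ahrra-null TCDD replicates 14, 15 and 16 the enterocyte count with TCDD was 2 or 3, and the hepatocyte count with TCDD was 0 without wild-type TCDD replicate 7 or 8 or ahrra-null TCDD replicate 16 and 3 without ahrra-null TCDD replicate 13. In those fits 13% of all genes were called with DMSO and 18% to 24.5% with TCDD, in either direction. The part of these markers in the lists' values was not tested.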

How the data were processed

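RNA-seq gene counts of 14 whole-embryo libraries at 72 hpf were used. Per the labels' protocols, RNA came from a BioRad Aurum kit and the TruSeq libraries were unstranded, so reads of a gene and of an antisense partner cannot be told apart. The authors deposited raw read counts for Ensembl genes, which carry no normalization. The submitters' processing notes name cutadapt, TopHat2, SAMtools, HTSeq, edgeR and the build GRCz10. Their versions, the annotation and the treatment of multiply mapped reads were not given in the sources used here; reads of close paralogs may be split or lost. Groups and replicate numbers came from the titles. Replicate pairs differed by more than sampling noise (chi-square per degree of freedom 2.52 to 18.4 over 18 pairs). Each library was counted as 1 replicate, though this spread cannot show that the libraries come from separate clutches or pools.

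A table of IDs and symbols gave a symbol for 26269 of 32105 IDs. Some symbols are in capitals there. The members, the gene lists and the rule for named genes were chosen with earlier results of these data known. A listed symbol that was missing was matched without its paralog letter, so some list genes may be paralogs of the gene meant. Gene order came from RefSeq annotation of GRCz12tu, a later build, so no coordinates are given.

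Genes passing edgeR's filterByExpr by group (minimum count 10) were fitted by edgeR 4.0.16 in R 4.3.3 with TMM scaling and robust quasi-likelihood over all 14 libraries, with 5 contrasts and Benjamini-Hochberg adjustment over 21606 genes. Fold changes use a prior count of 0.125, and list means of log2 CPM a prior count of 2. The standard error is the fold change divided by the root of F, an approximation. The common biological coefficient of variation was 7.19%. The procedure was tested on simulated data. Members called in any of the 4 comparisons of groups, and the most abundant member of each role, are given by library; at most 4 called genes of each list were eligible for naming, by smallest adjusted p. The alternatives tried were scaling by median ratio or upper quartile, DESeq2 1.42.0, limma 3.58.1 voom with sample quality weights, no filter, 1 CPM in 3 libraries, a fit of the compared groups only, and leaving out each library.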

Additional observations from a re-analysis of the deposited data

Results flagged for a closer look

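In the groups of 4 libraries, 84 sets of values were examined for a library far from the rest of its group: those of the 41 members and of the member mean in both ahrra-null groups. A set was taken where the gap to the nearest other library exceeded 0.829 of the whole range. Chance gives about 1 such set in 20, and 6 were found, so no pattern is read from them. itih3b.2 stood at 8.94 CPM in ahrra-null TCDD replicate 13, against 5.18 to 5.78 CPM in the others of its group. Among ahrra-null DMSO libraries, replicate 9 was high for TTR (1.04 CPM, against 0.503 to 0.578 CPM) and for fetub (10.3 CPM, against 8.13 to 8.33 CPM). Replicate 12 of that group was low for hpxa (0.275 CPM, against 0.568 to 0.604 CPM) and for itih3a.1 (1.83 CPM, against 2.68 to 2.8 CPM). Replicate 11 was high for fga (19.1 CPM, against 15.1 to 15.8 CPM).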

How the results depend on the processing

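The replicate numbers run on from group to group and the labels used here name no pairs, so no paired analysis was made. A pairing or batch shared between groups was not tested. No member call reversed; the median interaction, 0.20 as reported, changed sign to -0.03 without wild-type DMSO replicate 2. Under DESeq2, limma voom and a fit of the compared groups alone, the members called for TCDD were 2, 3 and 0 in wild type and 4, 4 and 2 in ahrra-null, against 1 in each as reported. Of all genes, 1.14%, 1.62% and 0.68% were then called in wild type and 1.53%, 1.7% and 1.16% in ahrra-null. The interaction had 1, 0 and no such fit, against 0. Leaving out single libraries gave 0 to 10 members for TCDD in wild type, 1 to 3 in ahrra-null, 16 to 26 for genotype with DMSO and 12 to 20 with TCDD, and 0 for the interaction. The share of all genes called changed too. In the same order it ranged from 0.376% to 1.78%, 0.654% to 1.73%, 13% to 23%, 18% to 24.5% and 0% to 0.0458%. The median log2 fold changes then ranged from -0.59 to -0.22 for TCDD in wild type, -0.36 to -0.12 in ahrra-null, -0.58 to -0.34 for genotype with DMSO, -0.49 to -0.24 with TCDD and -0.03 to 0.38 for the interaction. Over the 2 other scalings no count of members called changed. Of the calls reported, 13 of 24 with DMSO and 11 of 19 with TCDD held under every alternative, and each lost call is given in the report with its value. The filter of 1 CPM in 3 libraries left 39 members. Members with few counts (hpxa, TTR, ITIH5, apoa4a) have wide errors, and differences there may have been missed at this depth. The cause of these changes was not tested.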

Other observations

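Genes outside both the symbol rule and all the gene and marker lists, with a mean log2 CPM of at least 1, were ranked by likeness to the members. Likeness was the correlation with the members' mean log2 CPM over the 14 libraries, after subtraction of group means. The closest were s100a11 (Pearson r of 0.96), oxct1b (0.95), zgc:123103 (0.95), trim63b (0.94) and afp4 (ENSDARG00000095863, 0.94). Genes of the lists, such as the hepatocyte and enterocyte markers, were not ranked. These values describe the same 14 libraries that the members share, and no test was made. The 4 endocrine pancreas markers, as a list of another gut organ, summed to 2.94 to 6.15 CPM in ahrra-null TCDD and 3.07 to 5.26 CPM in ahrra-null DMSO libraries, against 3.15 to 5.85 CPM in wild-type TCDD and 3.08 to 3.93 CPM in wild-type DMSO libraries. With edgeR 0 of these 4 were called in any comparison, and at an unadjusted p under 0.05 there was 1 in the TCDD comparison of genotype and 1 for TCDD in wild type.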
